A study of Mus musculus with 2 samples.

Results

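Rnase1, Rnase4, Ang and Dnase1 are 4 genes for secreted enzymes that cut nucleic acids, out of 43346 gene rows in the deposited tables. Their rows were found by symbol, through the GENCODE annotation of GRCm38; no measured value enters that rule, although the set was proposed with earlier results of these data known. Polyadenylated RNA was sequenced from the pancreas of a single female C57BL/6J mouse, adult and 10 weeks old, with no treatment or genetic change given in the labels. The material is whole tissue, and RNA was extracted with the RNeasy Lipid Tissue Mini Kit. Both libraries are technical replicates of 1 biological sample; by the labels, replicate 2 was made later and added to the experiment. There is therefore 1 group and no comparison between conditions, and every SD below is technical (n = 2).

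Ribonucleases of the RNase A family are small secreted proteins held together by disulphide bonds, and they cleave single-stranded RNA after pyrimidines. Acinar cells of the exocrine pancreas store Rnase1, the mouse counterpart of bovine pancreatic RNase A, with the other digestive enzymes and release it into the gut. Rnase4 is a broadly expressed member with a preference for uridine. Ang encodes angiogenin, a weak ribonuclease known for inducing blood vessel growth and for cleaving tRNA in stressed cells. Dnase1 encodes DNase I, a secreted endonuclease of another fold that cuts double-stranded DNA and was first purified from bovine pancreas. In the mouse the parotid gland is known as a main source of it.

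The 3 ribonucleases carry the signature of their family, which includes a catalytic lysine. The coding stretches around it are shown so that the genes can be compared at this site. They are read 5′ to 3′ on the coding strand of GRCm38, with the 7 signature codons in capitals.
Rnase1, chr14:51145665-51145721, minus strand: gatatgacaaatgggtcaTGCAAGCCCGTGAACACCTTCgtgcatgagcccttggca
Rnase4, chr14:51105004-51105060, plus strand: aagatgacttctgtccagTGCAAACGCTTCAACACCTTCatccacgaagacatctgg
Ang, chr14:51101572-51101628, plus strand: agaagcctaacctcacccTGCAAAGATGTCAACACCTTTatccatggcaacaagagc
Of the 21 bases in capitals, Rnase1 and Rnase4 had 17 identical, Rnase4 and Ang 16, and Rnase1 and Ang 15. The whole proteins, translated from the reference coding sequences, were 149 residues long for Rnase1, 148 for Rnase4 and 145 for Ang. Rnase1 and Rnase4 were 46.5% identical over their alignment, Rnase4 and Ang 41.7%, and Rnase1 and Ang 38.1%. Rnase1 and Rnase4 held 8 cysteines each and Ang 6. All 3 had more lysine and arginine than aspartate and glutamate, by 4 residues in Rnase1, 7 in Rnase4 and 9 in Ang. Dnase1 encodes 284 residues, holds no such signature and has an excess of 12 acidic residues.

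The libraries were similar in size, with 9441559 expected counts in replicate 1 and 9797569 in replicate 2. Genes of the mitochondrial genome took 17.6% of the counts in replicate 1 and 3.17% in replicate 2. Nuclear copies of such genes, with Gm42418, Gm26917 and Lars2, took 20.9% and 49.4%. All 9 acinar markers and all 7 islet markers reached 1 TPM (a level corrected for transcript length and scaled to the same total in each library) in both libraries. The acinar markers summed to 113845 TPM in replicate 1 and 142145 in replicate 2, while their median went from 16702 to 12130. Without Cela2a, the other 8 summed to 97143 and 95412. The islet markers summed to 21934 and 23619, but did not move together. Ins1, Ins2 and Ppy were higher in replicate 2, and Gcg, Sst, Chga and Iapp were lower. Gcg went from 4235 to 1566 TPM and Ppy from 25.73 to 86.55. Of 5 liver markers 1 reached 1 TPM in both libraries, Ttr at 113 and 95.3. Alb stood at 0.61 and 0.56, Apoa1 at 0 and 0.15, Serpina1a at 0.27 and 0, and Fgb at 0 in both. Of 3 salivary markers 1 did, Bhlha15 at 25.8 and 29.1, which is also an acinar marker, and Smr3a and Prol1 were at 0. Of 4 gut markers 2 did, Lyz1 at 4.89 and 2.51 and Vil1 at 2.05 and 2.67. In whole tissue, a lower share of a cell type and less RNA per cell cannot be told apart. PCR copies of a read are not separate molecules, so the intervals and floors below hold counting error and nothing else.

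Rnase1 stood among the most abundant transcripts of the tissue, Rnase4 and Ang were at moderate levels, and Dnase1 had no counts. Rnase1 (ENSMUSG00000035896.4; GRCm38 chromosome 14, 51144998 to 51146785, minus strand, 2 exons) measured 20289 TPM in replicate 1 and 8203 TPM in replicate 2, a mean of 14246 ± 8546 (SD, n = 2). It ranked 15th of all genes in replicate 1 and 23rd in replicate 2. Its level was higher in replicate 1, by far more than counting error. It took 2.03% of all TPM in replicate 1 and 0.820% in replicate 2. As a share of counts it took 1.52% in replicate 1 (exact Clopper-Pearson 95% interval 1.51 to 1.52) and 0.515% in replicate 2 (0.511 to 0.520). Those shares rest on 143100 and 50481 counts from a single annotated transcript, and the deposited posterior SD of both counts was 0, so none of these reads was divided with another gene.

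Rnase4 (ENSMUSG00000021876.10; chromosome 14, 51091077 to 51106151, plus strand) measured 93.6 TPM in replicate 1 and 62.1 TPM in replicate 2, a mean of 77.9 ± 22.3 (SD, n = 2). It ranked 278th and 333rd, from 1111 and 662 counts. Ang (ENSMUSG00000072115.6; chromosome 14, 51091150 to 51102009, plus strand) measured 33.3 TPM in replicate 1 and 27.0 TPM in replicate 2, a mean of 30.1 ± 4.48 (SD, n = 2). It ranked 719th and 731st, from 204 and 151 counts. In both libraries the order was Rnase1, Rnase4, Ang, and no library of one gene reached the level of the gene above it. Rnase1 TPM was 217 times that of Rnase4 in replicate 1 and 132 times in replicate 2, and 609 and 304 times that of Ang.

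Dnase1 (ENSMUSG00000005980.11; chromosome 16, 4036942 to 4040024, plus strand) was listed at 0 counts and 0 TPM in both libraries, over all 11 of its annotated transcripts. A count of 0 was taken to allow up to 3 counts per library, a fixed limit and not the Clopper-Pearson interval used above. It corresponds to 0.381 TPM in replicate 1 and 0.437 TPM in replicate 2. Against that limit Rnase1 was at least 53260-fold higher in replicate 1 and at least 18765-fold higher in replicate 2. Ang, the lowest of the ribonucleases, was at least 87.4-fold and at least 61.7-fold higher. The deposited posterior mean TPM of Dnase1 was 2.09 in replicate 1 and 2.35 in replicate 2, but its posterior mean count was 0 in both. A zero was common: 6102 of 21474 protein coding genes (28.4%) had no count in either library.

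**Figure D1:**
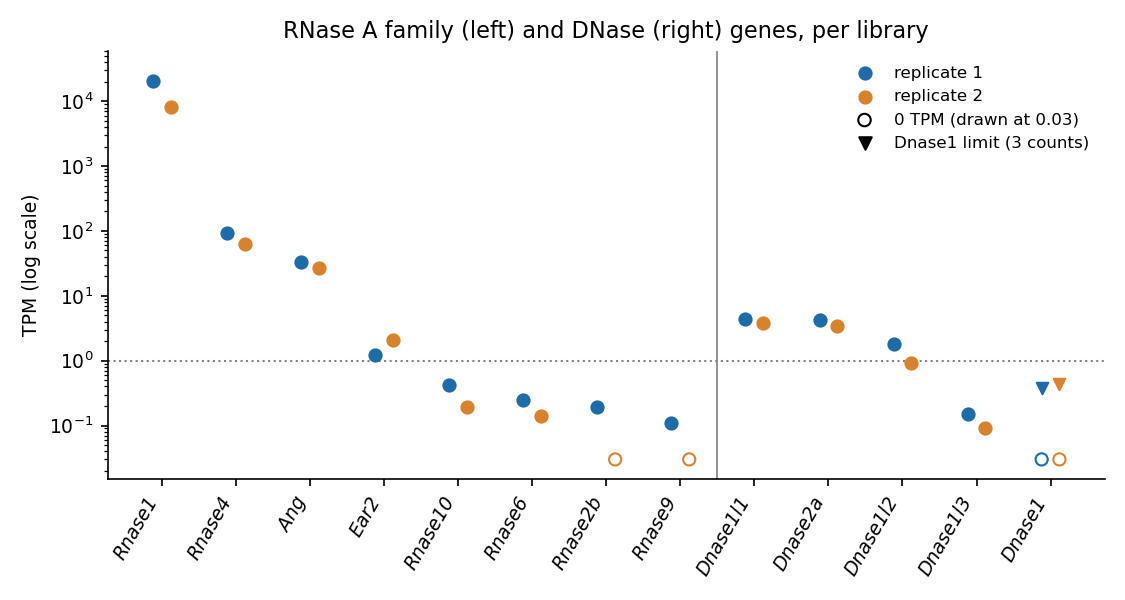
TPM on a log axis in each library for the RNase A family genes with a count in either library (left) and the detected DNase genes with Dnase1 (right). Open circles stand for 0 TPM and triangles for the fixed limit of 3 counts taken for Dnase1. Rnase1 sits at 20289 and 8203 TPM, Rnase4 and Ang between 27.0 and 93.6, and Dnase1 at 0, while the dotted line marks 1 TPM.

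Neighbouring genes on chromosome 16 had counts. Gm15879, an antisense gene that overlaps Dnase1 by 906 bases, had 10 counts in replicate 1 and 5 in replicate 2 (2.28 and 1.33 TPM). Trap1, which encodes a mitochondrial chaperone and overlaps the 3′ end of Dnase1 by 54 bases on the other strand, stood at 6.85 and 6.68 TPM. Slx4, the neighbour on the other side, had 70 and 49 counts. The labels and headers do not say whether counting used strand, so reads in the overlaps cannot be assigned with certainty. The deposited posterior SD of the Dnase1 count was 0 in both libraries, so no counted read was divided between Dnase1 and another gene.

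Rnase1, Rnase4 and Ang lie in the cluster of RNase A genes on chromosome 14. The cluster holds 15 genes of the family list, from 51007751 to 51922773, or 915 kb. Only those 3 of the 15 reached 1 TPM in both libraries. The 12 others together held 9 counts in replicate 1 and 3 in replicate 2, and 8 of the 15 had no count at all. The measured genes nearest to Rnase1 were among those with few or no counts. The long noncoding RNA gene 1810028F09Rik starts closer, 2.67 kb from the start of Rnase1, but had no deposited value. Rnase6, whose start lies 22.9 kb from that of Rnase1 on the Rnase4 side, had 2 counts in replicate 1 and 1 in replicate 2. Rnase2b, an eosinophil-type ribonuclease gene 15.5 kb away on the other side, had 1 count in replicate 1 and 0 in replicate 2. Eddm3b, between Ang and Rnase6, had 1 and 0, and the olfactory receptor gene Olfr750 on the far side of Rnase4 had 0 in both. Among the measured genes, high levels therefore sat next to levels of a few counts.

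**Figure D2:**
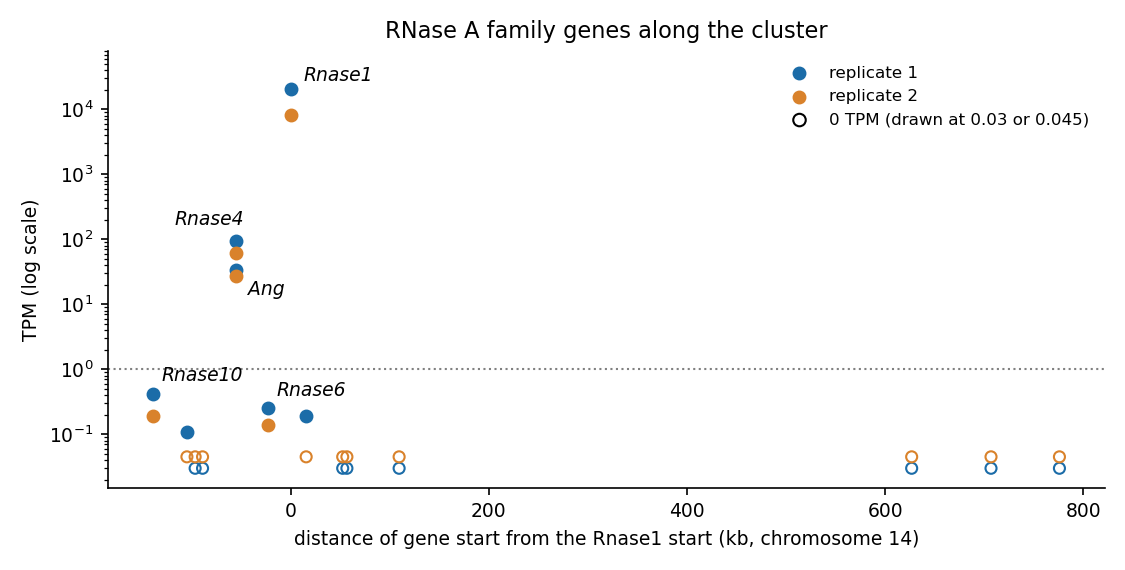
TPM on a log axis of the 15 RNase A family genes of the cluster against the distance of each start from the Rnase1 start in kb; open circles stand for 0 TPM. Rnase1 stands alone at the top, Rnase4 and Ang share a position 55.7 kb away, and the 12 other genes lie below the dotted line at 1 TPM.

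Over the whole family list, 20 of 26 symbols matched a row of the tables, and all 20 lie on chromosome 14. At 1 TPM or more in both libraries there were 4, or 20%, against 46.4% of protein coding genes. The fourth was Ear2, an eosinophil-associated ribonuclease gene, at 1.23 TPM in replicate 1 and 2.11 in replicate 2, from only 6 and 9 counts. No count was found for 12 of the 20. Rnase1 alone made up 99.4% of the family's summed TPM in replicate 1 and 98.9% in replicate 2. The signature shown above was found in 14 of the 19 family proteins that could be translated, and was missing from Rnase9 to Rnase13. Levels differed widely among the genes with the signature, and Ang2, which is 78.6% identical to Ang at the protein level, had no counts in either library.

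Rnase4 and Ang overlap on the same strand, and each has an upstream and a downstream start. In the annotation the upstream start of Ang lies 73 bases after that of Rnase4, and the downstream start of Ang lies 4.92 kb after the upstream start of Rnase4. The coding region of each gene is in 1 exon, and the coding regions do not overlap and are 2.98 kb apart. The exons share 219 bases, all untranslated, or 18.2% of the exonic bases of Ang and 13.4% of those of Rnase4. These lengths come from GENCODE M21, while the deposited values rest on GENCODE M4. The downstream Rnase4 transcript has a deposited length of 1819 bases against 1460 in GENCODE M21, and the upstream Ang transcript 799 against 728. These transcripts were therefore longer in the annotation used to divide the reads. The 219 shared bases hold for GENCODE M21 only, and the starts and the overlap behind the deposited values may differ from those given here.

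The sequences before the starts are shown because Rnase4 and Ang can be made from 1 upstream promoter, whereas Rnase1 has its own. Each is the 250 bases before a RefSeq start (GRCm38.p6), 5′ to 3′ on the gene's strand. Capitals mark the E-box CANNTG, and the motif TTCCCA on either strand. These are the parts of the bipartite element bound by PTF1, the transcription factor complex of acinar cells.
Rnase1, chr14:51146768-51147017, minus strand: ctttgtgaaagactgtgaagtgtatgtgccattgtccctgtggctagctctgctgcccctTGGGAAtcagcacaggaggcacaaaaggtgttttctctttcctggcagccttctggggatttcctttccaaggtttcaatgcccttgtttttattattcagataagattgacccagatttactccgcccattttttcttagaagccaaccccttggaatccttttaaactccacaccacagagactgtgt
Rnase4 and Ang, upstream start, chr14:51090827-51091076, plus strand: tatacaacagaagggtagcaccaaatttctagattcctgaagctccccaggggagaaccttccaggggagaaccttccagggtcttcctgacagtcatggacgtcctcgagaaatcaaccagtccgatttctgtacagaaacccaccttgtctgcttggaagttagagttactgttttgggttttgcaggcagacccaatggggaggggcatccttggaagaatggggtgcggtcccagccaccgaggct
Rnase4, downstream start, chr14:51095750-51095999, plus strand: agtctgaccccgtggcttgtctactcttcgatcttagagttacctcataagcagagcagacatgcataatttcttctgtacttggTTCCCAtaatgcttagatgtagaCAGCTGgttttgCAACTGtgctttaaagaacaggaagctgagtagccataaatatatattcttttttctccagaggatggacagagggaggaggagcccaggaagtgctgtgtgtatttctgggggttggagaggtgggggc
Both strands were searched over 300-base windows, the 250 bases above plus the 50 after the start, for both motifs and for the TATA box, spelled TATAAA. No matches overlapped each other in these windows. The Rnase1 window held 1 match, to the TTCCCA motif on the opposite strand at 190 bases before the start, and no E-box. The shared upstream window of Rnase4 and Ang held no match to any of the 3 motifs. The downstream window held 3 E-boxes, 1 of them just after the start, and 1 match to the TTCCCA motif. Its start is listed for Rnase4 in RefSeq. In GENCODE M21 the downstream Ang transcript starts there, at 51096000, and the downstream Rnase4 transcript starts at 51096359. The spelling TATAAA was not found in these 3 windows, and other forms of the TATA box were not searched. Each of the overlapping Dnase1 windows, not shown, held 2 E-boxes, 1 TATA box match on the opposite strand and no TTCCCA match. Among 32817 RefSeq windows of the same length, the E-box was found in 72.3%, the TTCCCA motif in 25.6%, both in 19.0% and the TATA box in 13.6%. The GC content was 43.7% for Rnase1 and 54.7% for the shared upstream window, against a median of 52.7%.

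Most of the Rnase4 and Ang signal was assigned to the upstream start, in replicate 1 more than in replicate 2. The upstream Rnase4 transcript measured 93.6 TPM in replicate 1 and 52.5 in replicate 2. The downstream one measured 0 TPM in replicate 1 and 9.59 in replicate 2, from 0 and 120 counts. The upstream transcript thus made up 100% of Rnase4 in replicate 1 and 84.6% in replicate 2. The deposited posterior SDs of the downstream count were 10.3 and 24.7, so the 120 counts of replicate 2 lay well above the uncertainty of the division of reads.

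For Ang, the upstream transcript measured 26.2 TPM in replicate 1 and 18.2 in replicate 2, or 78.6% and 67.5% of the gene. The downstream one measured 7.12 TPM in replicate 1 and 8.78 in replicate 2, from 58.0 and 62.4 counts with posterior SDs of 10.0 and 11.5. Taken over both genes, the upstream starts accounted for 94.4% of TPM in replicate 1 and 79.4% in replicate 2. The share was lower in replicate 2 for each gene, and neither difference was tested. The upstream Ang transcript rested on 145.6 counts in replicate 1 and 88.55 in replicate 2, with posterior SDs of 9.89 and 11.21. Rnase4 TPM was 2.81 times that of Ang in replicate 1 and 2.30 times in replicate 2. Without correction for length, the ratio of expected counts was 5.46 and 4.39. At the gene level the division was stable, with posterior SDs of 1.26 and 1.03 counts for each gene.

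**Figure D3:**
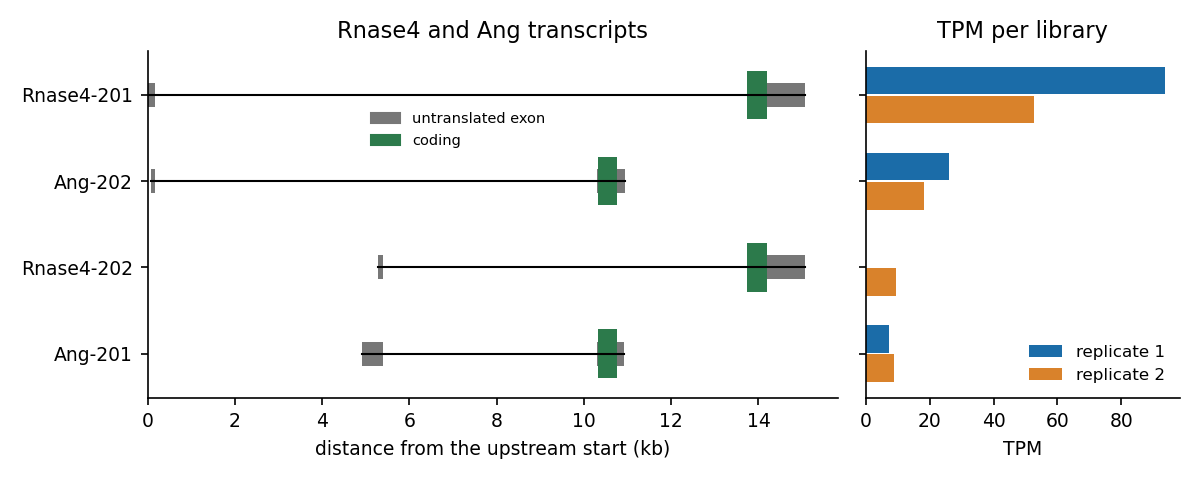
Left, GENCODE M21 exon maps of the Rnase4 and Ang transcripts against the distance in kb from the upstream start, with coding parts in green and untranslated exons in grey. Right, TPM of each transcript in each library, which rests on GENCODE M4. The upstream transcripts, which begin at the left edge, have the longer bars, and the downstream Rnase4 transcript has a bar of 9.59 TPM in replicate 2 and 0 in replicate 1.

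Among the digestive enzymes Rnase1 was a major product, and Rnase4 and Ang were not. The list holds 24 enzyme genes, all matched, with a median of 5890 TPM in replicate 1 and 5983 in replicate 2. Rnase1 stood at 3.44 times that median in replicate 1 and at 1.37 times in replicate 2. In replicate 1 only 3 enzyme genes were above it: Amy2a5 (pancreatic amylase), Ctrb1 (chymotrypsinogen) and Clps (colipase). In replicate 2 there were 11. Relative to the summed TPM of the list, Rnase1 came to 9.36% in replicate 1 and 3.06% in replicate 2, a comparison within each library that does not depend on how libraries are scaled. Rnase4 was 62.9-fold below the enzyme median in replicate 1 and 96.3-fold below it in replicate 2, and Ang 177- and 222-fold below.

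**Figure D4:**
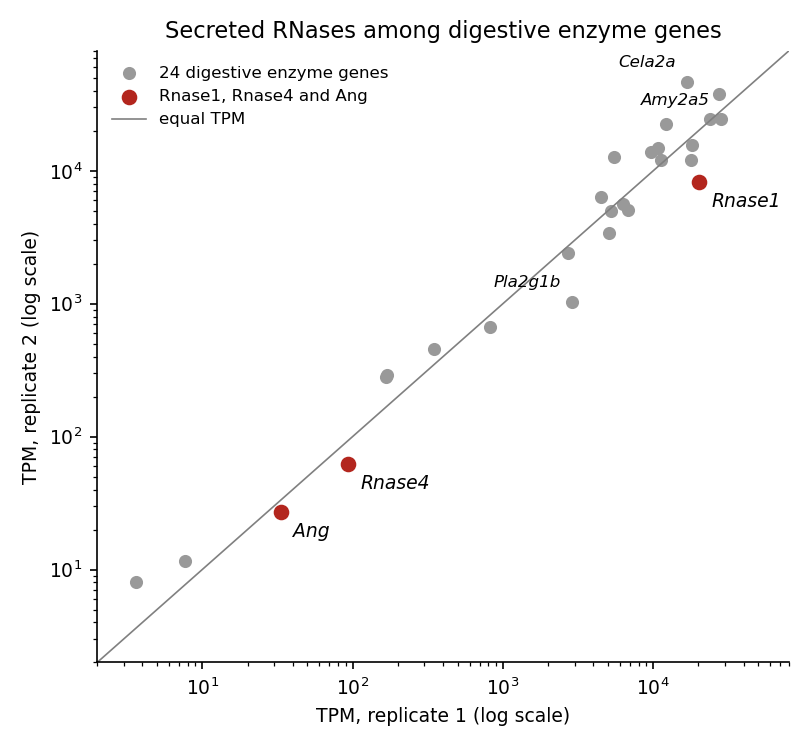
TPM in replicate 2 against TPM in replicate 1, both on log axes, for 24 digestive enzyme genes (grey) and for Rnase1, Rnase4 and Ang (red); the line marks equal TPM. Rnase1 lies at the upper end but below the line, at 20289 and 8203 TPM, and Rnase4 and Ang lie with the least abundant enzymes.

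Between the libraries, Rnase1 was the only one of these genes that differed past the thresholds. A gene was called when its adjusted p in the exact binomial test was under 0.05 and its log2 ratio of replicate 2 over replicate 1, after TMM scaling, was at least 1 in size. The test holds counting error only and compares 2 libraries of the same RNA source, with no replicate check. Rnase1 was 2.03-fold lower in replicate 2, at a log2 ratio of -1.02 (95% interval -1.04 to -1.01), and its adjusted p was too small for the calculation to hold. Rnase4 had a log2 ratio of -0.26 (-0.41 to -0.12, adjusted p = 0.00105 in the exact binomial test), which is under the size threshold. After removal of a smooth trend on GC content and transcript length the Rnase4 ratio was -0.13 (adjusted p = 0.152 in the exact binomial test). With an assumed dispersion of 0.01 in edgeR's exact test the adjusted p of Rnase4 was 0.445. Ang had a log2 ratio of 0.05 (-0.26 to 0.36; adjusted p = 0.881 in the exact binomial test), a sign that turned to -0.49 with library totals and to -0.11 with totals of the genes outside the mitochondrial and Gm42418 set. Dnase1 was not tested, as it had no counts.

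So 1 of the 3 tested genes was called, against 12.3% of all 12452 tested genes; 498 of those were lower in replicate 2, as Rnase1 was. Of the 52 genes with a mean of 10000 counts or more, 20 were called (38.5%), 14 of them lower in replicate 2. The Rnase1 ratio sits close to the size threshold. After removal of a smooth trend on GC content and transcript length it was -0.96 and no longer called, and with an assumed dispersion of 0.1 in edgeR's exact test its adjusted p was 1, against 3.79e-05 with a dispersion of 0.01. Of the 24 enzyme genes, 6 were called higher and 1 lower in replicate 2, with a median log2 ratio of 0.58. With library totals 0 were called higher and the median was 0.04, and after the GC and length trend was removed 2 were called higher. The one called lower with TMM scaling was Pla2g1b, the secreted phospholipase A gene, at -1.17, and it was also the only enzyme gene with a lower ratio than Rnase1. Between replicate 1 and replicate 2 the share of counts in mitochondrial genes was lower and that of the nuclear copies, Gm42418, Gm26917 and Lars2 higher; their part in the Rnase1 difference was not tested.

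Rnase4 and Ang counts can also be added, which removes the division of reads between them. The sum was 1315 counts in replicate 1 and 813 in replicate 2, at a log2 ratio of -0.21 (-0.34 to -0.08) with TMM scaling.

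**Figure D5:**
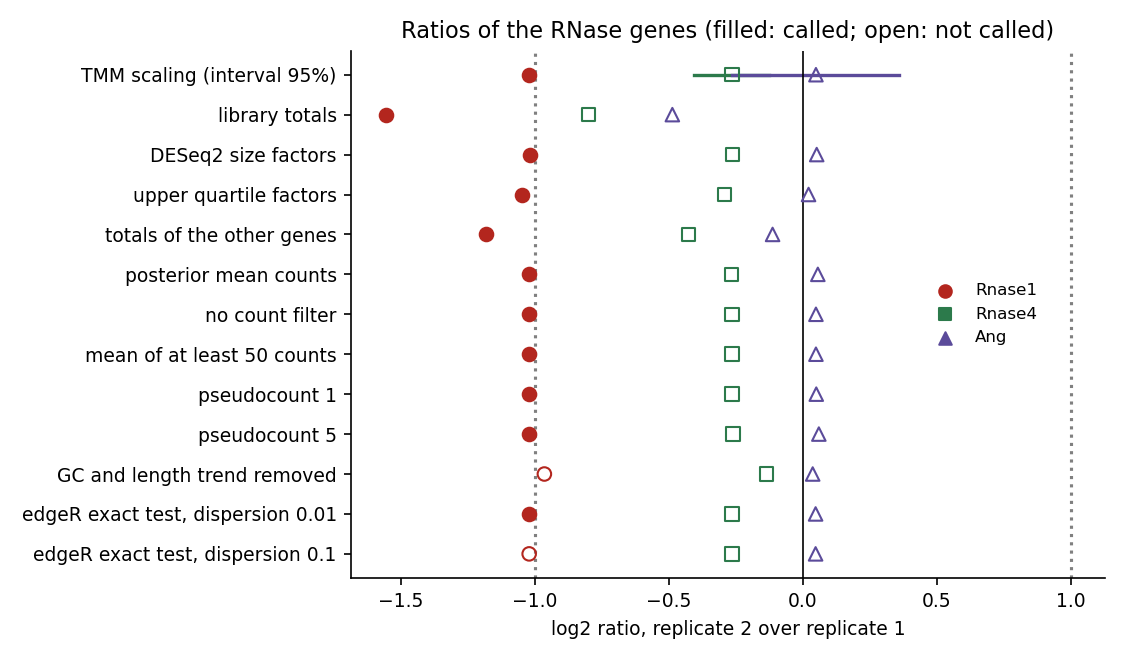
Log2 ratios of replicate 2 over replicate 1 for Rnase1, Rnase4 and Ang under TMM scaling, with 95% intervals, and under each alternative; filled symbols were called and open ones were not, and dotted lines mark the size threshold. Rnase1 stays between -1.56 and -0.96, Rnase4 lies on the negative side throughout, and Ang falls below 0 with library totals and with totals of the other genes.

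The genes closest in level to each member, by the sum over both libraries of the absolute log2 TPM difference, gave a scale for these values. For Rnase1 they were mt-Co1, a mitochondrial subunit of cytochrome oxidase, at 23971 and 7210 TPM, 2210010C04Rik at 13643 and 7662, and Cpa1 (carboxypeptidase A1) at 17943 and 12130. For Rnase4 they were Laptm4a, a lysosomal membrane protein gene, Serp1, an endoplasmic reticulum stress protein gene, and Acta2, smooth muscle actin, with 89.1 to 96.4 TPM in replicate 1 and 59.7 to 62.8 in replicate 2. For Ang they were Usp48, Vps16 and Trmt1, with 33.1 to 33.6 TPM in replicate 1 and 26.4 to 26.8 in replicate 2. With 2 libraries, likeness of this kind is likeness of level.

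Other deoxyribonuclease genes were detected where Dnase1 was not. Dnase1l1, a relative of DNase I, measured 4.45 TPM in replicate 1 and 3.85 in replicate 2. Dnase2a, the acid DNase of lysosomes, measured 4.20 and 3.37 TPM. Both lay above the limit for Dnase1 in each library, from 38 to 43 counts. Dnase1l2 passed 1 TPM in replicate 1 only (1.82 and 0.91 TPM), Dnase1l3 had 6 and 3 counts, and Dnase2b had none. None of the 3 tested genes of the list was called, against 12.3% of all tested genes, and 3 genes are too few to differ from that share. All 3 had adjusted p-values of 0.24 or more in the exact binomial test.

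Of 12 other nucleases and nucleic acid breakdown genes, 9 reached 1 TPM in both libraries. The highest were Rnasek, encoding RNase kappa, at 84.5 TPM in replicate 1 and 42.4 in replicate 2, and Rnaset2b, a gene for the lysosomal acid ribonuclease T2, at 47.1 and 20.7. Rnasek lay between Rnase4 and Ang in both libraries, and Rnaset2b did so in replicate 1 but fell below Ang in replicate 2. Pld3, a lysosomal exonuclease gene, measured 11.6 and 15.5 TPM, and Samhd1, which degrades deoxynucleotides, 12.2 and 6.26. Of 11 tested, 2 were called, both higher in replicate 2, against 8.31% of all tested genes called in that direction. One was Endog, which encodes the mitochondrial endonuclease G, at 7 counts against 31 in replicate 2 (log2 ratio 2.55), which was not called after the GC and length trend was removed (0.96). The other was Rnaset2a (log2 ratio 1.75), a near copy of Rnaset2b with 28.3 and 68.2 counts and posterior SDs of 11.04 and 13.0. The summed count of both copies went the other way, from 381 to 205, at a log2 ratio of -0.41 (-0.66 to -0.16). Neither Endog nor Rnaset2a was called at an assumed dispersion of 0.1 (edgeR's exact test, adjusted p = 0.418 and 0.841).

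The inhibitor and partner genes were all detected, 6 of 6, and none was called, against 12.3% of all tested genes. With 6 genes this cannot be told apart from that share. The adjusted p of 5 of the 6 passed 0.05 in the exact binomial test, but no log2 ratio reached the size threshold. The share of all tested genes with such a p is not given here, so the 5 are not a result about this list. Rnh1 encodes the cytosolic inhibitor that binds ribonucleases of the RNase A family. It measured 21.9 TPM in replicate 1 and 29.7 in replicate 2, far below Rnase1 in both libraries, below Ang in replicate 1 and above it in replicate 2. Actb and Actg1 encode actins, which in monomeric form bind and inhibit DNase I, and they measured 236 and 161 TPM and 160 and 142 TPM. Plxnb2, a receptor for angiogenin, measured 8.99 TPM in replicate 1 and 18.5 in replicate 2, at a log2 ratio of 0.74 by counts.

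Genes for the later handling of nucleotides were at low levels. Of 10 matched genes for nucleotide breakdown and nucleoside uptake, 5 reached 1 TPM in both libraries. None of 8 tested was called, against 12.3% of all tested genes, and so few genes cannot be told apart from that share. The adjusted p of 1 of the 8, Slc29a1, passed 0.05 in the exact binomial test. Slc29a1, an equilibrative nucleoside transporter, was the highest at 16.2 TPM in replicate 1 and 18.3 in replicate 2. Slc28a3 and Slc28a2, concentrative nucleoside transporters, measured 4.10 and 2.01 TPM and 1.30 and 1.52 TPM. Alpl, tissue-nonspecific alkaline phosphatase, measured 3.25 and 1.96 TPM.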

How the data were processed

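Values come from deposited gene and transcript tables of 2 technical libraries (1 mouse), built on mm10 and GENCODE M4, per the deposited README files. Aligner, quantifier and versions: not given in the sources used here. The authors deposited expected counts, TPM, FPKM, posterior means with posterior SDs and the isoform percent of each transcript, per the file headers. The deposited posterior mean TPM was entered as a signal. Symbols, exons and coding sequences came from GENCODE M21 (GRCm38), which matched 42462 of 43346 gene identifiers, and promoter windows from RefSeq. Another 26345 rows (spike-in and numbered rows) held no counts and were left out.

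Counts were rounded. Every gene averaging 10 counts or more entered a two-sided exact binomial test against library totals scaled by TMM (edgeR 4.0.16, R 4.3.3), with 0.5 added for log2 ratios and Benjamini-Hochberg adjustment over 12452 genes. edgeR's quasi-likelihood test has no residual degrees of freedom here. The test was tried on simulated data. Alternatives used DESeq2 1.42.0 size factors, other totals, filters and pseudocounts, a GC and length trend (mgcv 1.9.3) and edgeR exact tests. Proteins were aligned with Biopython 1.88. Python 3.11.15 was used.

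The genes and lists were chosen with earlier results of these data known. Named were the 4 genes, their neighbours, the 3 protein coding genes nearest in level to each, and the members of each list at 1 TPM in both libraries, or the highest 4. Enzyme genes, Dnase1l2, Dnase1l3, Dnase2b, Ang2, Rnaset2a and Endog were named after their values were seen. The list symbols Ang3, Ear3, Ear4, Ear5, Ear7, Ear12 and Pnp did not match a row.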

Additional observations from a re-analysis of the deposited data

How the results depend on the processing

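No paired analysis was possible because the libraries form 1 group of technical replicates. Leaving out a library leaves no ratio. The fall of Rnase1 kept its direction under every alternative tried (-1.56 to -0.96) but lost its call after the GC and length trend was removed (-0.96; 0 genes of the set called) and with an edgeR dispersion of 0.1 (-1.02; 0 called). Ang turned to -0.49 with library totals and to -0.11 with totals of the other genes; Rnase4 was not called under any alternative. Library totals moved the median log2 ratio of all tested genes from -0.01 to -0.55, and totals of the other genes moved it to -0.17. The share of calls that were higher in replicate 2 went from 67.5% to 11.6% and 45.6% with these totals, to 52.2% after the trend and stood at 74.7% with a pseudocount of 5. All genes called numbered 1533, against 2945 with library totals, 649 with a mean of at least 50 counts, 980 after the trend and 45 with a dispersion of 0.1. Without the mitochondrial and Gm42418 set, mean TPM came to 26310 for Rnase1, 143 for Rnase4 and 55.3 for Ang, and Dnase1 was at 0. As a separate alternative over all genes, the posterior mean TPM of Dnase1 was 2.22. By expected counts the upstream transcript made up 65.1% of Ang, and the Rnase4 to Ang ratio was 4.92. At 5 TPM, 0 DNase genes, 4 other nucleases and 1 uptake gene were detected in both libraries, and at 0.5 TPM, 8 uptake genes. The depth holds the Ang ratio only to -0.26 to 0.36. By the fixed limit of 3 counts, Dnase1 cannot be placed under 0.381 TPM in replicate 1 or 0.437 TPM in replicate 2.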
